A study of Mus musculus with 4 samples.

Results

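The Kruppel-like factors described here are 10 members of a family of zinc finger transcription factors: *Klf2*, *Klf3*, *Klf4*, *Klf5*, *Klf6*, *Klf7*, *Klf9*, *Klf10*, *Klf13* and *Klf15*. They were taken by gene symbol from 22463 symbols in the RNA-Seq tables, but were chosen with earlier results of these data known. Each has 1 listed transcript, and all 10 were among the 11541 symbols expressed at over 1 RPKM (read counts scaled by exon length and by mapped reads) in Ad-GFP cells on either day. The cells were brown preadipocytes from C57BL/6J embryos of age E18.5, immortalized with SV40T, and every group was *Mll3*-/- with floxed alleles of *Mll4* (*Mll3*-/- *Mll4* f/f). Adenoviral GFP (Ad-GFP, labelled WT although these cells lack *Mll3*) left *Mll4* in place, and adenoviral Cre (Ad-Cre, labelled MLL4 KO) was used to delete it; the groups are called GFP cells and Cre cells below. RNA was sequenced at day 0, which was after confluence and before induction, and at day 2 of a cocktail of insulin, T3, indomethacin, dexamethasone and IBMX. There was 1 library for each of the 4 conditions, all from 1 line of cells, so no difference below has a replicate check and none was tested.

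Kruppel-like factors bind GC-rich and CACCC-containing DNA through zinc fingers at their carboxyl end, and their other parts recruit coactivators such as p300 or corepressors such as CtBP and Sin3. In preadipocytes the family is known for acting in both directions. KLF4, KLF5, KLF6, KLF9, KLF13 and KLF15 have been described as promoting adipogenesis, at steps that include activation of *Cebpb* and *Pparg* and repression of *Dlk1*, whereas KLF2, KLF3 and KLF7 have been described as holding it back. *Klf9* and *Klf15* are also known targets of the glucocorticoid receptor, which dexamethasone activates. The comparisons below ask how each member changed from day 0 to day 2, and how its level differed between Cre and GFP cells on each day.

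The promoters of *Klf15* and *Klf9*, the members with the largest ratios of day 2 to day 0, and of *Klf4*, which fell in GFP cells, are shown as the 250 bases before the RefSeq start, read 5′ to 3′ on the gene's strand. The letters come from RefSeq promoters of GRCm38.p6, and each matched NCBI37/mm9, the build of the read tables, once. The *Klf15* window is chr6:90412320-90412569 on the plus strand, that of *Klf9* is chr19:23215466-23215715 on the plus strand, and that of *Klf4* is chr4:55545348-55545597 on the minus strand. Capitals mark CACCC, the core of the element this family binds, or its reverse complement GGGTG.
Klf15: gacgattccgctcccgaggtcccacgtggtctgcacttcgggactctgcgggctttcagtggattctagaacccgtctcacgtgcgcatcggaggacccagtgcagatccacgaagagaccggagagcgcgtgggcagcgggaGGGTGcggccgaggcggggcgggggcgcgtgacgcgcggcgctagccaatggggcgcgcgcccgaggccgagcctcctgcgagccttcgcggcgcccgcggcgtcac
Klf9: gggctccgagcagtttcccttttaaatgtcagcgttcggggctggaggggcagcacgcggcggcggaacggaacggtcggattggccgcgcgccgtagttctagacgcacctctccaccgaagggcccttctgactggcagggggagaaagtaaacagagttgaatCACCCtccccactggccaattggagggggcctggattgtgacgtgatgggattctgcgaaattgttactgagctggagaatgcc
Klf4: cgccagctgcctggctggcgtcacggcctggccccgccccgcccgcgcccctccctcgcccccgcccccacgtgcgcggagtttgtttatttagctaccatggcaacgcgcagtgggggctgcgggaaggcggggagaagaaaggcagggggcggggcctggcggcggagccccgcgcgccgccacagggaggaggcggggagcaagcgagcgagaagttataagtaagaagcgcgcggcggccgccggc
The single match in *Klf15* begins 107 bases and that in *Klf9* 84 bases before the start, and *Klf4* has none. Of the 8 members with a promoter in the table (all but *Klf5* and *Klf10*), 6 held CACCC, against 52.0% of 32851 promoters of the same length. Among the other members with lower values at day 2 in GFP cells, *Klf2* held 1 match, *Klf7* 3 and *Klf3* 5, whereas *Klf6* had no match. Of all promoters, 2.14% held 4 or more. Searches of both strands for TTNNGNAA, TGACGTCA and AGAACA, short forms of the C/EBP, CRE and glucocorticoid receptor elements, found no match in any of the 8. Those letters occurred in 36.85%, 1.55% and 16.1% of all promoters. The members' promoters were 59.2% to 78.4% G and C, compared with a median of 52.4%.

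Deposited reads on exons summed to between 15831915 and 22099995 per library. The count of *Mll4* (*Kmt2d*) covers its whole transcript, in which the floxed exons are a small part. It was 6304 reads in GFP and 6316 in Cre cells at day 0, then 8530 and 5595 at day 2, and therefore does not check the deletion. The paper checked the deletion by RNA-Seq reads over the targeted exons, qRT-PCR of *Mll4* and immunoprecipitation of the MLL4 complex. The 6 preadipocyte markers summed to 335 RPKM before and 121 RPKM after induction in GFP cells, and to 148 and 81.0 RPKM in Cre cells, with no marker at 0. The lower sum in Cre cells after induction came with *Pdgfrb* (123 and 41.9 RPKM) and *Pdgfra* (9.72 and 6.25), whereas *Dlk1*, *Cd34*, *Ly6a* and *Ebf2* had higher values at day 2 there, and *Ebf2* also in GFP cells (9.70 and 16.1 RPKM). The 6 adipocyte markers, again with none at 0, summed to 26.8 and 1778 RPKM in GFP cells and to 14.2 and 445 in Cre cells. Markers of brown fat were low. Their sum over 7 genes was 2.18 to 6.13 RPKM, *Cidea* had no read in any library and *Ucp1* at most 1. Of the others, *Zic1* had 300 reads (5.21 RPKM) in GFP cells before induction and 98 (1.27 RPKM) after it, and *Prdm16* had 82 and 424 reads (0.554 and 2.14 RPKM). In Cre cells *Zic1* had 153 and 67 reads (2.34 and 1.11 RPKM) and *Prdm16* 116 and 105 (0.691 and 0.677 RPKM). *Lhx8* had at most 24 reads in a library, *Ppargc1a* at most 9 and *Dio2* at most 5. Only *Zic1* was above 1 RPKM in every library, *Prdm16* was so only in GFP cells at day 2, and no other marker was in any. Of these 7 genes, little was thus seen at these times beyond *Zic1*, and *Prdm16* in GFP cells at day 2. *Ebf2*, counted above with the preadipocyte markers, was not part of this list. The sums do not judge the origin of the cells, which the paper took from interscapular brown fat. The paper also followed *Prdm16* and *Ucp1* by qRT-PCR during adipogenesis. Muscle markers summed to at most 1.29 RPKM, endothelial markers to at most 0.0536 RPKM, and both macrophage markers found were at 0. At day 2, ratios in the Cre library moved with transcript length and base composition. The median log2 ratio of Cre to GFP was 0.47 in the 10% of expressed genes with the shortest exons and -0.76 in the 10% with the longest, and -0.70 in the 10% lowest in GC and 0.62 in the 10% highest. Ratios divided by the length trend, or by both trends together, are given beside the calls they change among the 10 members, and for the main ones in the other lists.

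Before induction, *Klf3*, *Klf6* and *Klf13* had the highest levels of the 10 genes per length of transcript, and *Klf15* had the lowest. In GFP cells at day 0 the order was *Klf3* (27.7 RPKM), *Klf6* (17.3), *Klf13* (15.2), *Klf10* (8.90), *Klf7* (7.28), *Klf2* (6.63), *Klf9* (6.41), *Klf4* (4.13), *Klf5* (3.71) and *Klf15* (0.406). Neighbours from *Klf10* to *Klf9*, and *Klf4* and *Klf5*, did not differ beyond the 95% Poisson intervals of their reads. At day 2 the order was led by *Klf9* (86.2 RPKM), *Klf15* (32.7) and *Klf13* (29.7), and *Klf2* was last at 1.39. *Klf6* and *Klf5*, *Klf7* and *Klf4*, and *Klf4* and *Klf2* had overlapping intervals there. In Cre cells the order began with *Klf6*, *Klf13* and *Klf3* and ended with *Klf15* at day 0, whereas at day 2 it began with *Klf9*, *Klf13* and *Klf6* and ended with *Klf4*. *Klf9*, *Klf2* and *Klf7* at day 0, and *Klf5*, *Klf15* and *Klf3* at day 2, overlapped with their neighbours among these.

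**Figure D1:**
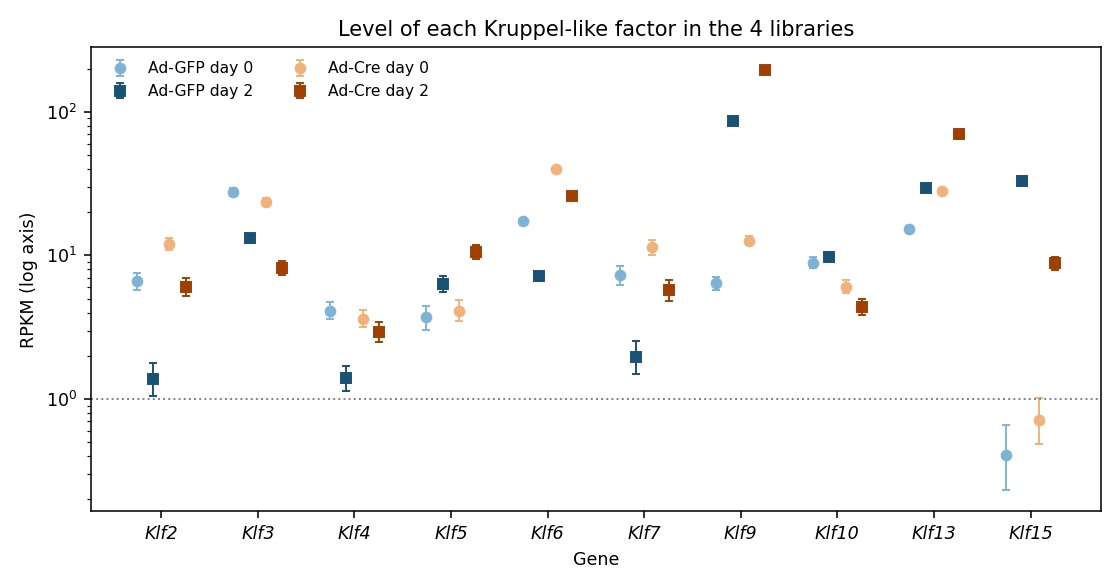
RPKM of the 10 Kruppel-like factors on a log axis, with circles for day 0, squares for day 2, blue for GFP and orange for Cre libraries; bars are 95% Poisson intervals, which cover counting error only, and the dotted line is the expression threshold of 1 RPKM. Only *Klf15* started below that line, at 0.406 and 0.715 RPKM, and *Klf9* reached 86.2 and 197 RPKM at day 2.

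The make-up of the family's RPKM changed with induction in both cell groups. The 10 genes summed to 97.7 RPKM in GFP cells before induction and 189.7 RPKM after it, and to 142.3 and 339 RPKM in Cre cells. *Klf9* made up 6.57% of that sum at day 0 and 45.4% at day 2 in GFP cells, and 8.92% and 58.0% in Cre cells. *Klf15* held 0.415% and then 17.3% in GFP cells, but 0.502% and then 2.60% in Cre cells. The share of *Klf3* was 28.4% before and 6.93% after induction in GFP cells. The share of *Klf13* lay between 15.6% and 20.5% in all 4 libraries.

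**Figure D2:**
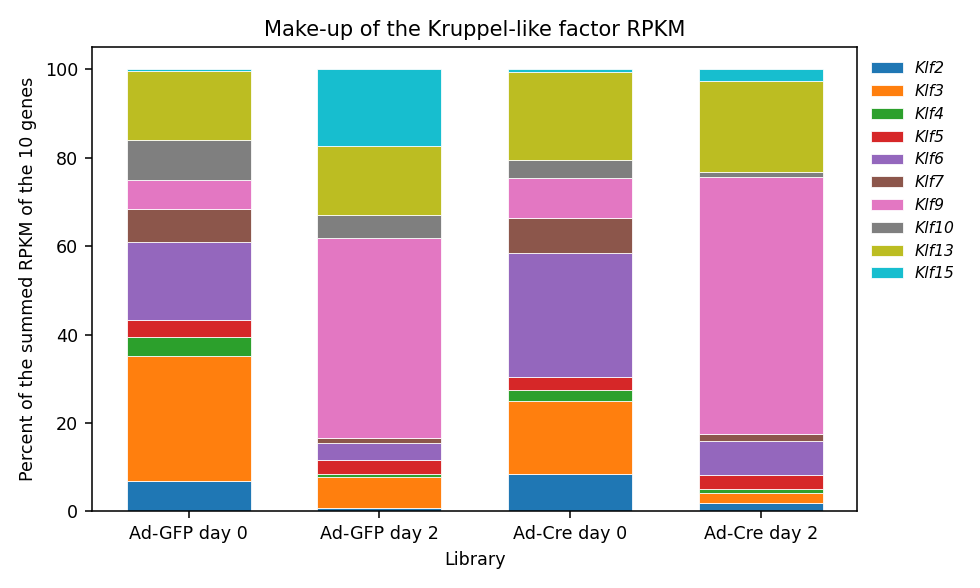
Percent of the summed RPKM of the 10 genes held by each gene, stacked to 100, for the 4 libraries. *Klf9* is the largest block at day 2 in GFP (45.4%) and Cre cells (58.0%), and the *Klf15* block is 17.3% in the first and 2.60% in the second.

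In GFP cells, 2 of the 10 members rose over 2.5-fold from day 0 to day 2 (*Klf9* and *Klf15*), where 8.38% of all expressed genes did, and 3 fell over 2.5-fold (*Klf2*, *Klf4* and *Klf7*), where 12.7% did. In Cre cells, 3 rose (*Klf5*, *Klf9* and *Klf15*, against 8.66% of expressed genes) and 1 fell (*Klf3*, against 10.0%). With both trends divided out, *Klf6* was also past the cutoff downward in GFP cells, *Klf2* was also past it downward in Cre cells, and *Klf13* took the place of *Klf5* among the rises in Cre cells. The members' median log2 ratio was -0.47 in GFP and -0.38 in Cre cells, compared with 0.15 and -0.01 over all expressed genes. Scaled by TMM factors, the medians over all genes were 0.05 and 0.03, and for Cre over GFP at day 2 the median moved from -0.16 to 0.02. Changes are therefore also given relative to the median of all genes where they lie near the cutoff. In these bulk libraries, fewer cells of a type and less RNA per cell cannot be told apart.

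**Figure D3:**
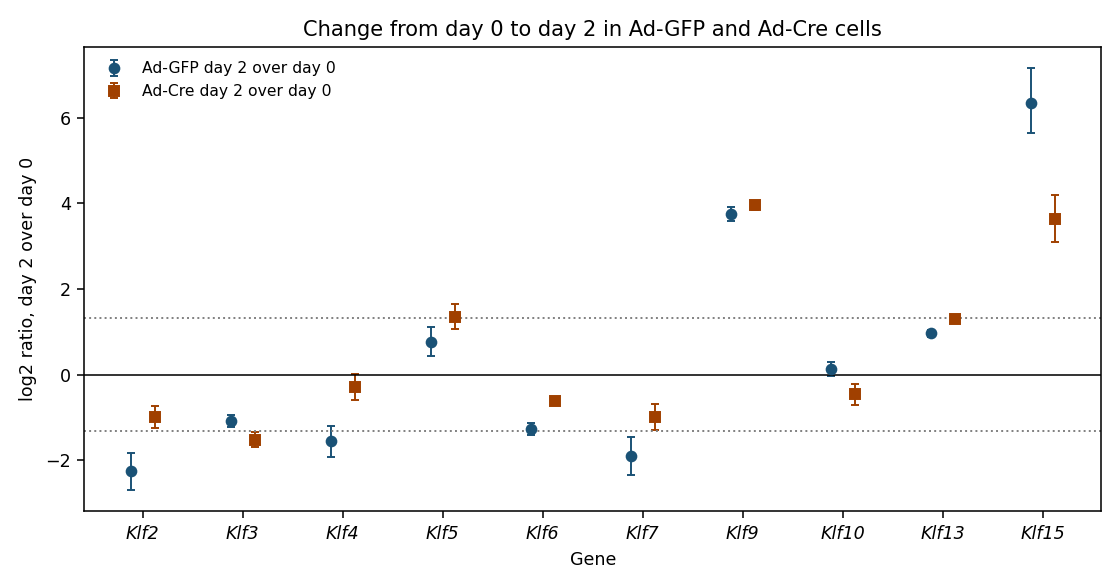
The log2 ratio of day 2 to day 0 for each gene in GFP (circles) and Cre cells (squares), with 95% binomial intervals that cover counting error only; dotted lines mark 2.5-fold. *Klf9* is at 3.75 and 3.95 in the 2 cell groups, and *Klf15* is at 6.33 and 3.62.

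*Klf15* encodes an activator known for inducing the glucose transporter gene *Slc2a4* (GLUT4) in fat and muscle. It lies on chromosome 6 (90412570-90425232, NCBI37/mm9, plus strand). In GFP cells it had 16 reads (0.406 RPKM) before and 1726 reads (32.7 RPKM) after induction, and 32 reads (0.715 RPKM) and 364 reads (8.80 RPKM) in Cre cells. Both day 0 libraries were below 1 RPKM and the Cre library at day 2 stood between them and the GFP library. The rise was 80.7-fold in GFP cells (log2 6.33, 95% interval 5.63 to 7.14) and 12.3-fold in Cre cells (3.62, 3.10 to 4.19). With 1 RPKM added to both sides, these log2 ratios were 4.58 and 2.51. The ratio of inductions, Cre over GFP, was 6.56-fold lower (log2 -2.71, -3.69 to -1.79).

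At day 2 the level of *Klf15* was 3.72-fold lower in Cre than in GFP cells (log2 -1.90, -2.06 to -1.73), and -2.07 after division by the length and GC trends. At day 0 its log2 ratio was 0.82, with an interval of -0.09 to 1.78 that includes 0. The sum of the 6 adipocyte markers also differed between the day 2 libraries, at 1778 and 445 RPKM, and its part in the *Klf15* difference was not tested. *Slc2a4* had 29 and 1525 reads in GFP cells and 44 and 247 in Cre cells. Its log2 ratio of inductions was -2.70 (-3.45 to -1.95), beside -2.71 for *Klf15*. Among the 16 expressed adipogenic regulators and targets described below, 6 were past the cutoff lower in this ratio and 4 higher. Of all expressed genes, 11.1% were lower and 11.2% higher. *Adipoq* was at -3.32 (-5.91 to -1.16), *Bcat2* at -1.46 (-1.71 to -1.22) and *Prodh* at 0.60 (-0.46 to 1.69).

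*Klf9*, an activator that has been placed upstream of *Pparg* in the middle of differentiation, lies on chromosome 19 (23215716-23241401, plus strand). Its 360 reads (6.41 RPKM) in GFP cells at day 0 became 6463 reads (86.2 RPKM) at day 2, and in Cre cells 808 reads (12.7 RPKM) became 11575 (197 RPKM). The Cre library was the higher one on both days, and both day 2 libraries were far above both day 0 libraries. The gene rose 13.4-fold in GFP (log2 3.75, 3.59 to 3.90) and 15.5-fold in Cre cells (3.95, 3.85 to 4.06). The ratio of inductions was 0.21 on the log2 scale (0.02 to 0.39). Cre exceeded GFP by a log2 ratio of 0.98 (0.80 to 1.17) at day 0 and 1.19 (1.15 to 1.24) at day 2, under the cutoff in both cases. Relative to the median of all expressed genes the day 2 ratio was 1.35, which is past 2.5-fold. Thus the 2 members that rose in GFP cells had day 2 ratios of opposite sign between Cre and GFP cells.

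*Klf5* acts with C/EBP beta and delta on *Pparg* early in adipogenesis and lies on chromosome 14 (99697910-99712624, plus strand). It had 110 reads (3.71 RPKM) and 250 reads (6.30 RPKM) in GFP cells, and 139 reads (4.13 RPKM) and 328 reads (10.5 RPKM) in Cre cells, at day 0 and day 2. Day 2 was the higher library of each pair. The log2 ratio was 0.77 (0.44 to 1.10) in GFP cells and 1.35 (1.06 to 1.65) in Cre cells, where it passed the cutoff. That call was lost with 1 RPKM added, with the length trend (1.12) and with the length and GC trends (0.67). The day 2 ratio of Cre to GFP was 0.74 (0.50 to 0.99) as deposited but -0.08 after division by both trends, so it has no stable sign. *Klf5* is at the 90.0th percentile of GC content among expressed genes, and 17.3% of 50-base windows of its transcript matched elsewhere in the genome with at most 2 mismatches, so its reads are uncertain.

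*Klf4* is an early activator of *Cebpb* and lies on chromosome 4 (55540013-55545347, minus strand). GFP cells had 216 reads (4.13 RPKM) before and 98 reads (1.40 RPKM) after induction, whereas Cre cells had 215 reads (3.62 RPKM) and 162 reads (2.95 RPKM). The 2 day 0 libraries did not differ beyond counting error, and the GFP library at day 2 was the lowest. The fall in GFP cells had a log2 ratio of -1.56 (-1.92 to -1.21), which was -1.09 with 1 RPKM added. In Cre cells the ratio was -0.29 (-0.60 to 0.01). The day 2 ratio of Cre to GFP was 1.08 (0.70 to 1.45) and the ratio of inductions 1.26 (0.79 to 1.74), both under the cutoff, and the second was 1.40 when scaled by TMM factors. In this gene 32.3% of the 50-base windows matched elsewhere, and its reads are uncertain.

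*Klf6*, known as a repressor of *Dlk1*, lies on chromosome 13 (5860735-5869639, plus strand). It had 1253 reads (17.3 RPKM) and 693 reads (7.15 RPKM) in GFP cells, and 3289 reads (40.0 RPKM) and 1985 reads (26.1 RPKM) in Cre cells. Both Cre libraries were above both GFP libraries. Its log2 ratio of day 2 to day 0 was -1.27 (-1.41 to -1.14) in GFP cells, just short of the cutoff, and -0.61 (-0.70 to -0.53) in Cre cells. Relative to the median of all expressed genes the first was -1.42, past 2.5-fold, and with both trends the 2 ratios were -1.55 and -0.23. The ratio of inductions was 0.66 (0.50 to 0.82), and 1.32 with both trends, which just passed the cutoff. Cre cells exceeded GFP cells by 1.21 (1.12 to 1.31) at day 0 and by 1.87 (1.74 to 2.00), or 3.65-fold, at day 2. After division by the length and GC trends the day 2 ratio was 2.63. *Dlk1*, the preadipocyte gene whose product inhibits adipogenesis, went from 10525 to 5124 reads in GFP cells and from 859 to 1403 in Cre cells.

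*Klf13*, which has been linked to activation of *Pparg*, lies on chromosome 7 (71031237-71083801, minus strand). Its counts were 1676 reads (15.2 RPKM) and 4366 reads (29.7 RPKM) in GFP cells, and 3531 reads (28.3 RPKM) and 8028 reads (69.6 RPKM) in Cre cells. Day 2 was above day 0 and Cre above GFP in each pair. The log2 ratio of day 2 to day 0 was 0.96 (0.88 to 1.04) in GFP and 1.30 (1.24 to 1.36) in Cre cells, the latter 2.46-fold. That ratio was past the cutoff with TMM factors (1.34), the length trend (1.90) and both trends (1.59). At day 2 the ratio of Cre to GFP was 1.23 (1.18 to 1.28), 1.39 relative to the median of all genes, 1.94 after division by the length trend and 1.50 with both trends. *Klf13* has one of the longer transcripts (91.9th percentile), and 6.93% of its windows matched elsewhere.

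All 3 members described as inhibitors had lower values at day 2 than at day 0 in both cell groups, with intervals below 0. Falls were also seen among members described as promoting adipogenesis. *Klf6* was lower at day 2 in both cell groups, with intervals below 0, and *Klf4* fell past the cutoff in GFP cells. Among the 3 inhibitors, the cutoff was passed by *Klf2* and *Klf7* in GFP cells and by *Klf3* in Cre cells, a split that depends on the cutoff and on the trends. *Klf2*, a repressor of the *Pparg* promoter on chromosome 8 (74842932-74845555, plus strand), had 207 reads (6.63 RPKM) and 58 reads (1.39 RPKM) in GFP cells, and 423 reads (11.9 RPKM) and 197 reads (6.02 RPKM) in Cre cells. The Cre library at day 2 was close to the level of GFP cells at day 0. The fall was 4.77-fold in GFP cells (log2 -2.25, -2.70 to -1.83), and the ratio in Cre cells was -0.99 (-1.24 to -0.74). With both trends divided out these ratios were -2.12 and -1.67, both past the cutoff, and the ratio of inductions was 0.45 in place of 1.27 (0.76 to 1.78). At day 2, *Klf2* was 4.33-fold higher in Cre cells (2.11, 1.69 to 2.56), and 0.85 (0.61 to 1.10) higher on the log2 scale at day 0. It is among the genes richest in GC (91.8th percentile), and after division by the length and GC trends the day 2 ratio was 1.29, under the cutoff.

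*Klf7*, a further inhibitor of preadipocyte differentiation, lies on chromosome 1 (64076021-64168856, minus strand). It had 167 reads (7.28 RPKM) and 60 reads (1.96 RPKM) in GFP cells, and 296 reads (11.4 RPKM) and 138 reads (5.74 RPKM) in Cre cells. As with *Klf2*, the order from high to low was Cre day 0, GFP day 0, Cre day 2 and GFP day 2. It fell 3.72-fold in GFP cells (log2 -1.90, -2.35 to -1.46), and the ratio in Cre cells was -0.99 (-1.29 to -0.69), or -1.43 with the length trend and -1.15 with both trends. At day 0 the ratio of Cre to GFP was 0.64 (0.37 to 0.93), and at day 2 it was 1.55 (1.10 to 2.01), or 2.93-fold. That day 2 call was lost with 1 RPKM added (1.19) and with the length trend (1.29), and held with the length and GC trends (1.73). The GC content used for *Klf7* is that of a transcript of 7664 bases, whereas its counted exons were 0.486 of the median length. By comparison, *Klf13*, with a transcript of 6396 bases, was at 2.33. The GC content of *Klf7* thus comes mostly from sequence that was not counted. Whether its call holds with the GC content of the counted exons cannot be told. Annotated exons of *Klf7* overlap exons of the genes *Gm13748* and *Gm17427*, whose strand was not compared. It was not checked whether the overlap lies in the counted exons, and no strand of counting is stated. Any reads of these partners cannot be told apart.

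*Klf3* represses *Cebpa* with the corepressor CtBP and lies on chromosome 5 (65194628-65221368, plus strand). It had 1104 reads (27.7 RPKM) and 699 reads (13.1 RPKM) in GFP cells, and 1061 reads (23.5 RPKM) and 342 reads (8.20 RPKM) in Cre cells. Unlike *Klf2* and *Klf7*, it was lower in the Cre library on both days. Its log2 ratio of day 2 to day 0 was -1.08 (-1.22 to -0.94) in GFP cells and -1.52 (-1.70 to -1.34), past the cutoff, in Cre cells. Cre over GFP was -0.24 (-0.36 to -0.12) at day 0, and the day 2 value was -0.68 (-0.87 to -0.49).

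*Klf10* is an early response gene of TGF-beta signalling on chromosome 15 (38221219-38230464, minus strand) and was past the cutoff in no comparison. It had 466 reads (8.90 RPKM) and 682 reads (9.74 RPKM) in GFP cells, and 360 reads (6.06 RPKM) and 242 reads (4.41 RPKM) in Cre cells. Both Cre libraries were below both GFP libraries. At day 0 the ratio of Cre to GFP was -0.55 (-0.76 to -0.35). At day 2 it was -1.14 (-1.36 to -0.93), and -0.60 with the length and GC trends. From day 0 to day 2 the log2 ratio was 0.13 (-0.04 to 0.30) in GFP cells, and -0.10 with those trends, and -0.46 (-0.70 to -0.22) in Cre cells.

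Set side by side, Cre over GFP put no member past 2.5-fold at day 0, where 1.27% of expressed genes were higher and 4.12% lower. At day 2 it put 3 higher (*Klf2*, *Klf6* and *Klf7*, against 8.14% of expressed genes) and 1 lower (*Klf15*, against 10.1%). The count of 3 became 5 with TMM factors, with sums of counts as the denominator or with the length trend. Both scalings added *Klf9* and *Klf13*, and the length trend added these and *Klf4* while *Klf7* dropped out. With both trends the count was again 3, with *Klf13* in the place of *Klf2*, and *Klf7* was kept there with the GC content of a longer transcript. The ratio of inductions was past 2.5-fold for no member in the higher direction (11.2% of expressed genes) and for *Klf15* in the lower (11.1%). With TMM factors *Klf2* (1.40) and *Klf4* (1.40) were past it in the higher direction, with the length trend *Klf4* (1.59), and with both trends *Klf6* (1.32), where *Klf2* was at 0.45 and *Klf4* at 1.31. The members' median log2 ratio of Cre to GFP was 0.73 at day 0 and 1.13 at day 2, against -0.02 and -0.16 over all expressed genes, and 7 of 10 members lay above that median on each day. These comparisons share libraries pairwise, so they are not separate observations of a gene.

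**Figure D4:**
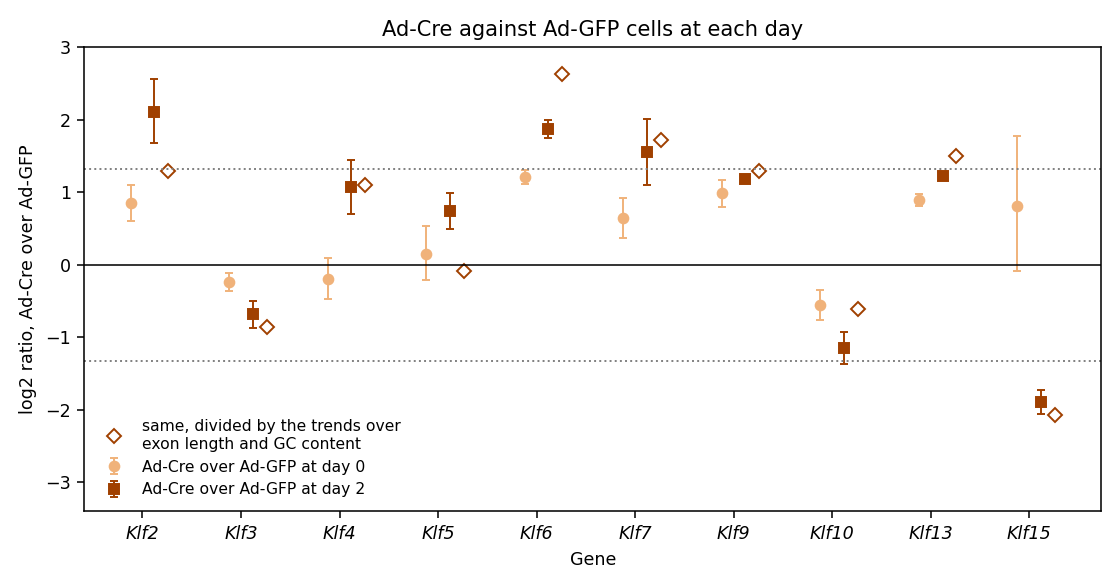
The log2 ratio of Cre to GFP for each gene at day 0 (circles) and day 2 (squares) with 95% binomial intervals covering counting error only; open diamonds are the day 2 ratios divided by the trends over exon length and GC content, and dotted lines mark 2.5-fold. *Klf6* has the highest diamond (2.63), *Klf2* moves from 2.11 to 1.29, and *Klf15* stays the lowest at -1.90 and -2.07.

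The other KLF and SP genes share the zinc finger domain of the members. Of 16 such genes, 7 were expressed (*Klf11*, *Klf12*, *Klf16* and *Sp1* to *Sp4*), and none of them passed the cutoff from day 0 to day 2 in GFP cells. In Cre cells *Sp2* fell (-1.73, -1.96 to -1.50), and with both trends *Klf16* was also past the cutoff (-1.47 in place of -0.95). At day 2, *Sp1* (-1.46, -1.56 to -1.37) and *Sp3* (-1.38, -1.51 to -1.25) were lower in Cre than in GFP cells, but were at -1.28 and -1.20 with TMM factors, and at -0.49 and -0.58 with both trends, all under the cutoff. Their counts at day 2 were 3920 and 1116 reads for *Sp1* and 2129 and 641 for *Sp3*. Of all expressed genes, 10.1% were past the cutoff lower in Cre cells at day 2. The median of the 7 at day 2 was -0.94, compared with -0.16 over all expressed genes, and -0.35 with the trends; none was past the cutoff at day 0. *Klf1*, the erythroid member, had 12 reads in GFP and 60 reads in Cre cells at day 2. *Sp8* had no read in any library, which allows up to 3 reads in each.

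All 11 cofactors and ubiquitin ligases of the family were expressed. From day 0 to day 2, 1 of them rose in GFP cells, where 8.38% of all expressed genes did. It was *Wwp1* (1.50, 1.25 to 1.76), a ligase that targets KLF5 among others, and none of the 11 was past the cutoff in Cre cells. At day 2, 2 were lower in Cre cells, against 10.1% of all expressed genes. These were the acetyltransferase gene *Kat2b* (-1.63, -1.88 to -1.39) and *Wwp1* (-1.68, -1.95 to -1.42). With both trends they were at -0.83 and -0.81, and the ratio of *Wwp1* over time in GFP cells was 1.17. With 1 RPKM added the 3 ratios were -1.27, -1.25 and 1.13, so none of these calls held under either setting. The same 2 genes were past the cutoff lower in the ratio of inductions, where 11.1% of expressed genes were. *Kat2b* was at -2.03 (-2.36 to -1.71) and *Wwp1* at -2.44 (-2.83 to -2.05). With 1 RPKM added these were -1.60 and -1.78, and with both trends -1.23 and -1.43, so that call held for *Wwp1* under both settings. *Ctbp1*, the corepressor of KLF3, had between 4714 and 6224 reads, and its log2 ratio of Cre to GFP at day 2 was -0.03 (-0.09 to 0.02), as was the median of the list. None of the 11 was past the cutoff between the cell groups at day 0.

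Among 19 adipogenic regulators and targets linked to these factors, 16 were expressed. In GFP cells 11 of them rose and 2 (*Dlk1* and *Gata2*) fell, against 8.38% and 12.7% of all expressed genes. In Cre cells 10 rose and none fell, against 8.66% and 10.0%. With both trends *Cebpd* (1.28) left the first count and *Prodh* (1.22) the second. At day 2, 8 were lower in Cre cells, among them *Pparg* (-2.36, -2.55 to -2.16) and *Cebpa* (-1.96, -2.00 to -1.93), and 1 was higher, *Cebpd* (1.71, 1.65 to 1.77). Of all expressed genes, 10.1% were lower and 8.14% higher there. With both trends *Bcat2* (-1.37) took the place of *Dlk1* (-1.25) among the 8, and with TMM factors *Gata2* (1.48 in place of 1.29) was also past the cutoff upward. At day 0 *Pparg* and *Dlk1* were already lower, at -1.73 (-2.31 to -1.17) and -3.80 (-3.90 to -3.70), the first -1.10 with 1 RPKM added, and *Cebpa* (-1.28) was at -1.37 with both trends. *Cebpb*, the target of KLF4, had 2293 and 12711 reads in GFP cells and 1385 and 20609 in Cre cells, and its log2 ratio of Cre to GFP at day 2 was 1.05 (1.02 to 1.08), or 0.17 with both trends. The list's median log2 ratio at day 2 was -1.33, compared with -0.16 over all expressed genes, whereas that of the 10 Kruppel-like factors was 1.13.

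The 6 glucocorticoid-induced genes, set beside *Klf9* and *Klf15*, also moved unequally. In GFP cells 4 rose (*Per1*, *Fkbp5*, *Tsc22d3* and *Zbtb16*) and *Sgk1* fell, against 8.38% and 12.7% of all expressed genes. In Cre cells the same 4 names passed the cutoff upward and none fell, against 8.66% and 10.0%. The rise of *Per1* in GFP cells (1.40, 1.28 to 1.52) was 1.30 with TMM factors, 1.31 with 1 RPKM added and 1.28 with the length trend, under the cutoff. *Per1*, a clock gene, had 2504 reads in GFP and 4167 in Cre cells at day 2 (log2 ratio 1.09, 1.01 to 1.16), on the side of *Klf9*. That ratio was 1.67 with the length trend but 0.89 with both trends. *Zbtb16*, a zinc finger repressor, had 4160 and 672 reads (-2.28, -2.40 to -2.16) and *Tsc22d3*, the gene of the leucine zipper protein GILZ, 5303 and 1575 reads (-1.40, -1.48 to -1.32), on the side of *Klf15*. *Fkbp5*, with 19477 and 8460 reads (-0.85, -0.89 to -0.82), was also on that side but under the cutoff. At day 2, 1 of the 6 was past the cutoff higher in Cre cells (*Dusp1*) and 2 lower, against 8.14% and 10.1% of all expressed genes. The median over the list was 0.12, and none was past the cutoff at day 0. With both trends 2 were higher, *Dusp1* (2.05) and *Sgk1* (1.47 in place of 1.10), and 1 was lower, *Zbtb16* (-1.97), since *Tsc22d3* was at -1.12 (-1.22 with TMM factors). The glucocorticoid receptor gene *Nr3c1* was at -0.62 (-0.72 to -0.53), and at 0.35 with the length and GC trends.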

How the data were processed

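RNA-Seq was analysed from the 4 libraries of adipogenesis. The authors aligned 50-base reads to NCBI37/mm9 after the Illumina Analysis Pipeline and kept those on exons of RefSeq transcripts. The submitters' processing notes also name bedtools 2.16 and SICER 1.1. The authors deposited the count of reads per transcript as whole numbers, and its RPKM, which divides the count by exon length and by mapped reads. The treatment of reads with several matches and the strand setting are not given in the sources used here. The names Ad-GFP and Ad-Cre follow the paper for the libraries labelled WT and MLL4 KO.

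From these values, log2 ratios of deposited RPKM were computed, with 1 transcript per symbol, the one with most reads. Symbols came from a RefSeq table (97.8% of 29082 transcripts matched). Expressed genes had over 1 RPKM in Ad-GFP cells on either day, and a gene was called past 2.5-fold, after the methods of the paper. By these cutoffs the paper counted more expressed genes, and a smaller share of them fell in Ad-GFP cells. The reason for that difference was not tested. Each ratio has an exact binomial 95% interval of its reads, and each ratio of inductions (Ad-Cre day 2 over day 0, divided by the same in Ad-GFP cells) an exact conditional one. With no replicates, these intervals cover counting error only. PCR duplicates were not marked by molecular identifiers, so the intervals may be too narrow even for that. No test was run, since each condition has 1 library.

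TMM factors were from edgeR 4.0.16 in R 4.3.3, with no edgeR test. Trends were medians of 20 bins of exon length, and of GC content of the longest GENCODE transcript, in 5 rounds, and the division by both was chosen after seeing the data. Intervals were from scipy 1.17.1 in Python 3.11.15, tables from pandas 2.3.3 with numpy 2.4.6, plots from matplotlib 3.10.9 and window matches from blastn 2.17.0. The 2.5-fold call and the binomial intervals were run on simulated Poisson counts of genes with many reads. That run held no spread between cultures, and did not cover the trends, the ratio of inductions or genes with few reads. Loci are from GENCODE vM1.

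Named genes are the 10 members, 4 lists (other KLF and SP genes, cofactors and ligases, adipogenic regulators and targets, glucocorticoid-induced genes), the cell type markers, and the 3 expressed genes with at least 100 reads nearest in pattern to the members with the highest and the lowest ratio of day 2 to day 0 in Ad-GFP cells. The members and lists were chosen with earlier results of these data known. Alternatives were TMM factors, sums of counts, 1 RPKM added, the mean of all transcripts, the trends, cutoffs of 2-fold and 4-fold, the interval past the cutoff, 20 reads, all transcripts for the background, and expression in any library.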

Additional observations from a re-analysis of the deposited data

How the results depend on the processing

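No member past 2.5-fold changed sign under any alternative run, and the mean over listed transcripts changed no value. Of the 50 ratios of the members, those outside their counting interval numbered 7 with 1 RPKM added, 6 with TMM factors, 8 with sums of counts, 18 with the length trend and 21 with the length and GC trends. The counts of members in GFP cells over time that fell were 5 at 2-fold and 1 at 4-fold. In Cre cells 2 fell with either trend, *Klf3* with *Klf7* for length and *Klf3* with *Klf2* for both, and 0 at 4-fold. Cre over GFP at day 0 had 1 higher at 2-fold. At day 2 it had 5 higher with TMM factors, sums of counts or the length trend, 6 at 2-fold and 1 at 4-fold, and 2 lower at 2-fold and 0 at 4-fold. The ratio of inductions was higher in 2 members with TMM factors, sums of counts or 2-fold, and in 1 with either trend, which was *Klf4* with the length trend and *Klf6* with both. When the interval itself had to pass 2.5-fold, 2 of the 3 falls in GFP cells, 2 of the 3 rises in Cre cells and 2 of the 3 higher members at day 2 were still counted.

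The shares of all expressed genes past the cutoff, higher and lower in turn, moved as follows. With 1 RPKM added they were 5.26% higher in GFP cells over time, 5.13% and 5.78% in Cre cells, 0.719% and 1.76% for Cre over GFP at day 0, 5.08% and 4.85% at day 2, and 7.11% and 6.47% for the ratio of inductions. At 2-fold they were 14.4% (higher, GFP), 14.5% and 16.1%, 2.41% and 6.24%, 12.7% and 17.9%, and 18.5% (lower, ratio of inductions). At 4-fold they were 3.71% and 7.71%, 3.64% and 4.37%, 0.477% and 2.21%, 3.42% and 3.1%, and 5.25% and 3.08%. Genes expressed in any library gave 2.08% higher at day 0. The length trend gave 6.43% lower at day 2 and 7.01% lower for the ratio of inductions, and the length and GC trends 6.06% and 6.38%.

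Without replicates the spread between cultures is unknown, and 16 to 60 reads stand behind the lowest values of *Klf15*, *Klf2* and *Klf7*. No paired analysis was possible because each condition has 1 library. The causes of the differences between settings were not tested.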

Other observations

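The genes nearest in pattern to the members with the highest and the lowest ratio of day 2 to day 0 in GFP cells were found among 11127 expressed genes, by the Euclidean distance of centred log2(RPKM + 0.1) over the 4 libraries. Nearest to *Klf15* were *Hif3a*, a subunit of a hypoxia-inducible factor, at a distance of 0.43, *Ppp1r1a*, an inhibitor of a protein phosphatase, at 0.45, and *Gpd1*, the cytosolic glycerol phosphate dehydrogenase, at 0.53. *Hif3a* had 5 and 1062 reads in GFP cells and 8 and 208 reads in Cre cells. *Gpd1* had 13 and 1445 reads in GFP cells and 17 and 366 in Cre cells. All 3 neighbours were lower at day 0 than at day 2 in both groups, and at day 2 lower in the Cre library. This follows from their selection by the same 4 libraries.

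Nearest to *Klf2* were *H2-Q4*, a class I histocompatibility gene, at a distance of 0.12, the homeobox gene *Dlx1* at 0.14 and *Pgf*, the placental growth factor gene, at 0.16. *Dlx1* had 317 and 99 reads in GFP cells and 636 and 296 in Cre cells. *H2-Q4* had 71, 18, 157 and 64 reads in the same order, and belongs to a family of near-identical copies, so its reads are uncertain. *Pgf* had at most 55 reads in a library. These distances are a description over 4 libraries, which the candidates and the members share.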
